A study of Homo sapiens with 6 samples.

Results

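The tubulin isotypes described here are 10 genes chosen by symbol: 4 alpha-tubulin genes (TUBA1A, TUBA1B, TUBA1C and TUBA4A), 5 beta-tubulin genes (TUBB, TUBB2A, TUBB3, TUBB4B and TUBB6) and the gamma-tubulin gene TUBG1. All 10 were found among the 12982 genes of the table. RNA was sequenced from SW480 cells of wild-type genotype, a long-established line from a human colon adenocarcinoma, grown in DMEM with serum. One group of 3 libraries came from cells given DMSO, the solvent, for 24 h. The other 3 libraries came from cells given MPM-1 for 24 h, a fluorescent probe that targets mitochondria, called WT4 in the sample labels. The dose of MPM-1 in this experiment is not given in the sources used here, and nothing says whether the libraries of a group came from separate cultures, so the p-values measure the spread between these libraries, which may be technical.

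Alpha- and beta-tubulin form the heterodimer that polymerizes into microtubules, the hollow filaments that carry intracellular transport and build the mitotic spindle. Gamma-tubulin forms ring complexes that start new microtubules at centrosomes and along spindle fibres. Several genes encode each class, their products co-assemble into the same filaments, and many of them differ most in the acidic C-terminal tail, where many microtubule-associated proteins bind and tubulin-modifying enzymes act. Cells also adjust tubulin mRNA to the amount of free dimer, since TTC5 recognizes the first amino acids of a nascent tubulin chain and targets the mRNA for decay.

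The coding sequences show how alike the members are, which bears on how reads could be assigned to them. In GENCODE release 29 (GRCh38), the 6 pairs of alpha members were 84.4% to 97.2% identical over the coding bases and the 10 pairs of beta members 80.9% to 87.7%, whereas the 20 alpha-beta pairs were 53.4% to 55.8% identical. TUBG1 was 51.0% to 54.8% identical to the other members. Over the last 60 coding bases, stop codon included, identity among beta pairs ranged from 47.6% to 75.0%. The ends of the beta members, which encode their C-terminal tails, are printed below because they are where these isotypes diverge most, 5′ to 3′ on the coding strand. Capitals mark bases that differ from, or have no partner in, TUBB4B in a pairwise alignment.
TUBB4B: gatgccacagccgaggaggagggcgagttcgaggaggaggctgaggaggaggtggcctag
TUBB: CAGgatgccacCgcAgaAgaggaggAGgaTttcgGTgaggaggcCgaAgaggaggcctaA
TUBB2A: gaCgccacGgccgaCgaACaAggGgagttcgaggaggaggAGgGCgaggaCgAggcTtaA
TUBB6: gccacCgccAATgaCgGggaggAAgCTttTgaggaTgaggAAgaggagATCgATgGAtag
TUBB3: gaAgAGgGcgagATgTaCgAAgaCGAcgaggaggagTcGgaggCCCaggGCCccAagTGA

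TUBB3 had the most capitals of the members shown, 25. The first 12 coding bases, which encode the N-terminal residues, were atgagggaaatc in TUBB and TUBB4B, atgagggagatc in TUBB3 and TUBB6, and atgcgcgagatc in TUBB2A. TUBG1 began with atgccgagggaa.

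TUBA1B lies at chr12:49127782-49131397 on the minus strand, beside TUBA1A (chr12:49184796-49189324, minus) and TUBA1C (chr12:49188736-49274603, plus). TUBA4A lies at chr2:219249711-219278170 (minus). TUBB (chr6:30720201-30725426, plus) and TUBB2A (chr6:3153669-3157526, minus) are on the same chromosome, and TUBB4B lies at chr9:137241213-137243707 (plus). TUBB3 lies at chr16:89921392-89938761 (plus), TUBB6 at chr18:12307669-12344320 (plus) and TUBG1 at chr17:42609676-42615234 (plus).

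Before treatment effects are given, 1 short account of the libraries is needed. The counts summed to between 31733667 and 40269820 per library, and each member had between 1538 and 68439 counts in each library. No pair of libraries within a group agreed within sampling noise, so all 6 were used. The keratin KRT8, which marks epithelium, stood at 4096 ± 379 CPM in DMSO and 5473 ± 446 CPM in MPM-1 (SD, n = 3; CPM are counts scaled to a common library size after TMM), and 9 of 9 colon epithelial markers were in the table, with sums of 8364 to 9748 CPM in DMSO and 12227 to 13761 CPM in MPM-1. Of these, 4 rose and 4 fell at an adjusted p under 0.01 (edgeR's quasi-likelihood test), where 20.4% of all genes tested rose and 20.7% fell. CDX2, an intestinal transcription factor, was among those that fell (log2 fold change −2.20, edgeR adjusted p = 5.3e-06). Of 11 markers of other cell types, 4 were in the table (sums of 116 to 156 CPM in DMSO and 154 to 171 CPM in MPM-1), of which DES and COL1A1 fell and CD68 rose, against the same shares.

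The levels of the tubulins were compared between genes by FPKM, which scales counts for transcript length and library size. In DMSO, TUBB4B was highest at 1043 ± 51.6 FPKM (SD, n = 3), followed by TUBA1B at 841 ± 60.1, TUBB at 551 ± 10.7 and TUBA1C at 211 ± 6.25 FPKM. None of these 4 overlapped its neighbour in the order over the 3 libraries. TUBB6, TUBB2A and TUBB3 followed with means of 67.9 to 74.3 FPKM and overlapped from each to the next among these 3, and TUBG1 (54.9), TUBA4A (49.9) and TUBA1A (33.5 FPKM) were lowest. TUBB4B thus ranked 79 and TUBA1A 2308 among the 12982 genes by mean FPKM in DMSO. In MPM-1 the top of the order closed up, with TUBB at 515 ± 21.0, TUBB4B at 510 ± 69.0 and TUBA1B at 487 ± 21.4 FPKM, each overlapping the next. TUBB2A (107 FPKM) and TUBB3 (87.2 FPKM), which overlapped each other, stood above TUBB6 (62.1 FPKM), which did not overlap TUBB3.

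**Figure D1:**
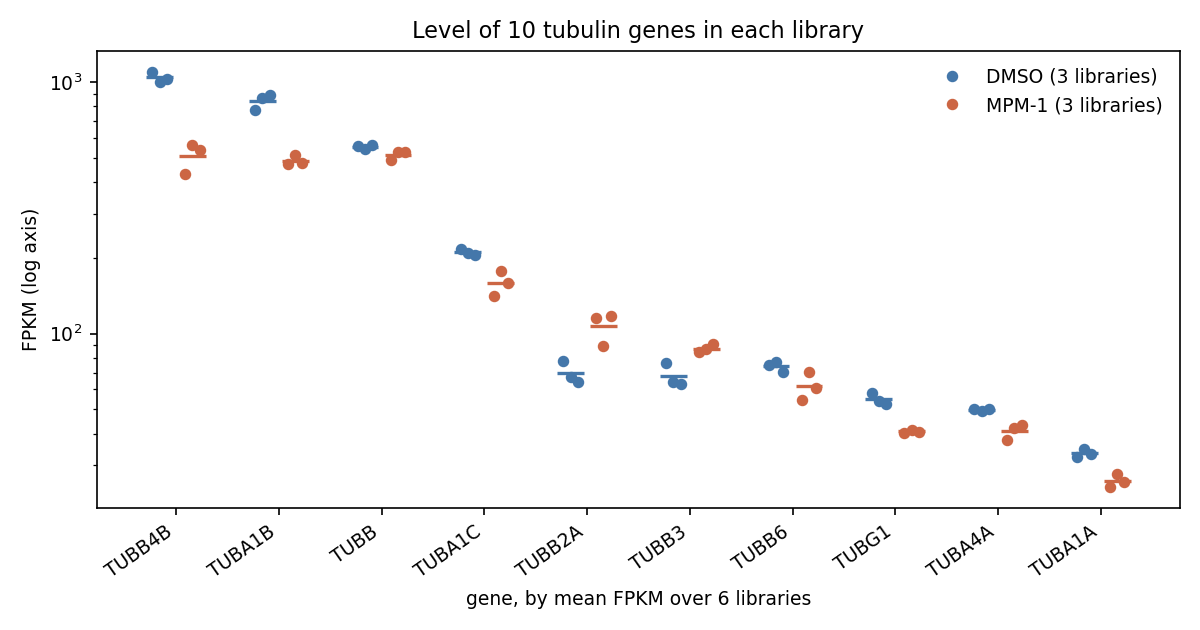
FPKM of each of the 10 tubulin genes on a log axis, with 1 point per library and a bar at the mean of 3 libraries, DMSO in blue and MPM-1 in orange. TUBB4B and TUBA1B drop from means of 1043 and 841 FPKM to 510 and 487 FPKM, close to TUBB, while TUBB2A and TUBB3 move up.

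The comparison of MPM-1 with DMSO asked which tubulin mRNAs differed between treated and solvent-treated cells. TUBB4B and TUBA1B, the members with the highest levels in DMSO, fell, and the less abundant beta genes TUBB2A and TUBB3 rose. The other 6, against 58.9% of all genes tested, did not pass an adjusted p of 0.01 (edgeR's quasi-likelihood test, p-values adjusted by Benjamini and Hochberg's method over all 12982 genes). Thus 2 of 10 fell, where 20.7% of all genes tested did, and 2 of 10 rose, where 20.4% of all genes did. These shares are near the background, and the median log2 fold change of the 10 was −0.13 against −0.026 for all genes. With scaling by library size alone, which moved the median of all genes to −0.18, 4 fell and 2 rose. The shares of all genes under that scaling are not given here. In a bulk sample, fewer cells of a type and less RNA per cell cannot be told apart.

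Among the alpha-tubulins, TUBA1B, the main alpha isotype of most dividing cells, stood at 1260, 1366 and 1396 CPM in the DMSO libraries and at 856, 890 and 845 CPM in the MPM-1 libraries. All 3 MPM-1 libraries were below all 3 DMSO libraries, and the log2 fold change was −0.63 (95% confidence interval −0.78 to −0.48; edgeR adjusted p = 4.7e-05). TUBA1C, a close relative of TUBA1B, stood at 654, 607 and 597 CPM in DMSO and at 470, 569 and 518 CPM in MPM-1. Its groups did not overlap either, but its log2 fold change of −0.26 (−0.44 to −0.07) did not pass (edgeR adjusted p = 0.026). Of all genes tested, 33.3% had every MPM-1 library below every DMSO library.

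TUBA1A, best known as the alpha isotype of developing neurons, stood at 54.7, 55.2 and 59.2 CPM in DMSO and at 50.5, 55.1 and 48.5 CPM in MPM-1. TUBA4A, the alpha isotype whose gene encodes no C-terminal tyrosine, stood at 108, 102 and 105 CPM in DMSO and at 90.4, 97.1 and 101 CPM in MPM-1. The groups overlapped for TUBA1A, and for TUBA4A the MPM-1 libraries lay just below the DMSO libraries. Their log2 fold changes were both −0.13, with intervals of −0.32 to 0.05 for TUBA1A and −0.29 to 0.04 for TUBA4A, and neither passed (edgeR adjusted p = 0.19 and 0.17).

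Among the beta-tubulins, TUBB4B, a widely expressed isotype found in cytoplasmic and ciliary microtubules, stood at 1805, 1585 and 1633 CPM in DMSO and at 784, 982 and 956 CPM in MPM-1. The highest MPM-1 library was far below the lowest DMSO library. Its log2 fold change of −0.88 (−1.10 to −0.67; edgeR adjusted p = 5.5e-05) was the largest in size among the 10. TUBB, the other abundant beta isotype, stood at 1482, 1394 and 1452 CPM in DMSO and at 1455, 1508 and 1532 CPM in MPM-1. The groups overlapped, and the log2 fold change was 0.05 (−0.08 to 0.19; edgeR adjusted p = 0.47), with the sign turning to −0.095 under scaling by library size alone and to −0.099 in limma on FPKM.

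TUBB2A stood at 124, 104 and 99.7 CPM in DMSO and at 203, 151 and 204 CPM in MPM-1. TUBB3, called class III beta-tubulin and widely used as a neuronal marker, stood at 134, 110 and 110 CPM in DMSO and at 160, 169 and 179 CPM in MPM-1. For both genes every MPM-1 library was above every DMSO library, as for 31.0% of all genes tested. TUBB2A rose by a log2 fold change of 0.77 (0.48 to 1.06; edgeR adjusted p = 0.00077). TUBB3 rose by 0.52 (0.31 to 0.73; edgeR adjusted p = 0.0012).

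TUBB6, a beta isotype with a divergent tail, stood at 149, 138 and 126 CPM in DMSO and at 116, 140 and 130 CPM in MPM-1. These groups overlapped, and the log2 fold change of −0.10 (−0.31 to 0.12) did not pass (edgeR adjusted p = 0.41). TUBG1, the main gamma-tubulin gene, stood at 93.5, 84.3 and 81.9 CPM in DMSO and at 71.9, 71.2 and 71.7 CPM in MPM-1. The MPM-1 libraries lay close together and below every DMSO library, with a log2 fold change of −0.27 (−0.45 to −0.10) that missed the threshold (edgeR adjusted p = 0.013). TUBG1 and TUBA1C passed under scaling by library size alone (log2 fold changes −0.42 and −0.40; edgeR adjusted p = 0.00080 and 0.0028) and in limma on log2(FPKM + 1) (−0.42 and −0.41; adjusted p = 0.0012 and 0.0041). TUBA1A passed in limma too (−0.35; adjusted p = 0.0045). At an adjusted p of 0.05 TUBG1 and TUBA1C would also count as fallen, making 4 of 10, where 28.8% of all genes fell, and the same 2 would count as risen, where 27.7% did. In 7 of 10 members the groups did not overlap in either direction, 5 lower and 2 higher with MPM-1, where 64.3% of all genes did not overlap.

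No member was a DEG, that is, none combined an adjusted p under 0.01 with a log2 fold change beyond −1 or 1. The count was 0 in edgeR, 0 at an unadjusted p under 0.05 with the same fold, and 0 in DESeq2, and 14.3% of all genes were DEGs in edgeR. The largest change in size, that of TUBB4B, was −0.88 in edgeR and −0.86 in DESeq2, so the fold threshold alone set these counts. TUBB4B alone reached that size under scaling by library size alone and in limma on FPKM, where 1 member was a DEG. The share of DEGs among all genes in those fits is not given here.

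**Figure D2:**
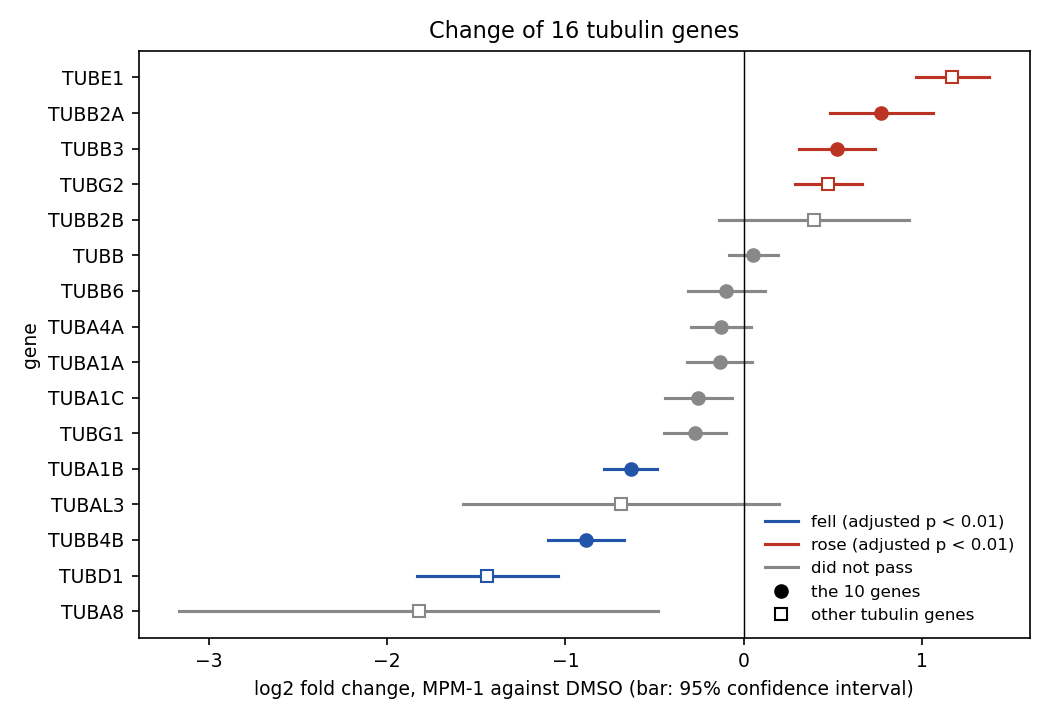
Log2 fold change of MPM-1 against DMSO with its 95% confidence interval for the 10 tubulin genes (filled circles) and the 6 other tubulin genes of the table (open squares), blue where the gene fell and red where it rose at an adjusted p under 0.01. TUBB4B (−0.88) and TUBA1B (−0.63) lie left of 0 and TUBB2A (0.77) and TUBB3 (0.52) right of it, between TUBD1 (−1.44) and TUBE1 (1.17).

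Since alpha- and beta-tubulin are used in equal numbers in the dimer, the genes of each class were also summed. The counts of the 6 alpha-tubulin genes of the table came to 2126 ± 41.2 CPM in DMSO and 1532 ± 73.9 CPM in MPM-1 (SD, n = 3), a log2 fold change of −0.47 (−0.61 to −0.33; edgeR adjusted p = 0.00018). The counts of the 6 beta-tubulin genes came to 3515 ± 198 CPM in DMSO and 2933 ± 147 CPM in MPM-1, a log2 fold change of −0.26 (−0.41 to −0.11; edgeR adjusted p = 0.0078). Both sums were lower with MPM-1, but the call on the beta sum was lost with DESeq2's size factors (adjusted p = 0.013), with the replicate number as a block (adjusted p = 0.016) and when any 1 library other than DMSO replicate 2 was left out, the log2 fold change then being −0.27 to −0.20. The ratio of summed alpha to summed beta FPKM was 0.626 ± 0.0531 in DMSO and 0.550 ± 0.0225 in MPM-1, which did not separate the groups (exact permutation test, two-sided, p = 0.2).

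The make-up of each class was described by the share of class FPKM taken by each gene. Shares within a class add up to the whole, so where the share of an abundant gene falls, the other genes together gain share. In DMSO, TUBB4B took 57.2% ± 0.514 and TUBB 30.3% ± 1.04 of beta-tubulin FPKM (SD, n = 3). In MPM-1, TUBB4B took 39.1% ± 2.68 and TUBB 39.7% ± 1.20, so that both had about the same share. The share of TUBB2A went from 3.82% ± 0.249 to 8.29% ± 1.59, and that of TUBB3 from 3.72% ± 0.257 to 6.72% ± 0.340. TUBB6 went from 4.08% ± 0.262 to 4.77% ± 0.359. For each of these 5 genes the 3 libraries of one group lay entirely on one side of the other, and p was 0.1, the smallest that 3 against 3 libraries allow (exact permutation test, two-sided), so no share could pass 0.05. The log2 fold changes of TUBB (0.05) and TUBB6 (−0.10) did not pass, so their larger shares do not show a rise of these genes.

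The FPKM ratio of TUBB4B to TUBB was 1.99, 1.85 and 1.83 in the DMSO libraries and 0.879, 1.06 and 1.02 in the MPM-1 libraries. TUBB4B thus stood well above TUBB in every DMSO library and at about the level of TUBB with MPM-1. Among alpha genes, TUBA1B took 73.9% ± 1.79 of the class in DMSO and 68.3% ± 1.42 in MPM-1. TUBA1C went from 18.6% ± 1.47 to 22.2% ± 1.28, TUBA4A from 4.39% ± 0.231 to 5.74% ± 0.334 and TUBA1A from 2.94% ± 0.0982 to 3.64% ± 0.0139, each with the groups apart (exact permutation p = 0.1). Their own log2 fold changes were −0.26, −0.13 and −0.13, so these shares grew without a rise of the genes. The share of TUBA1B stayed the highest of its class in every library.

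**Figure D3:**
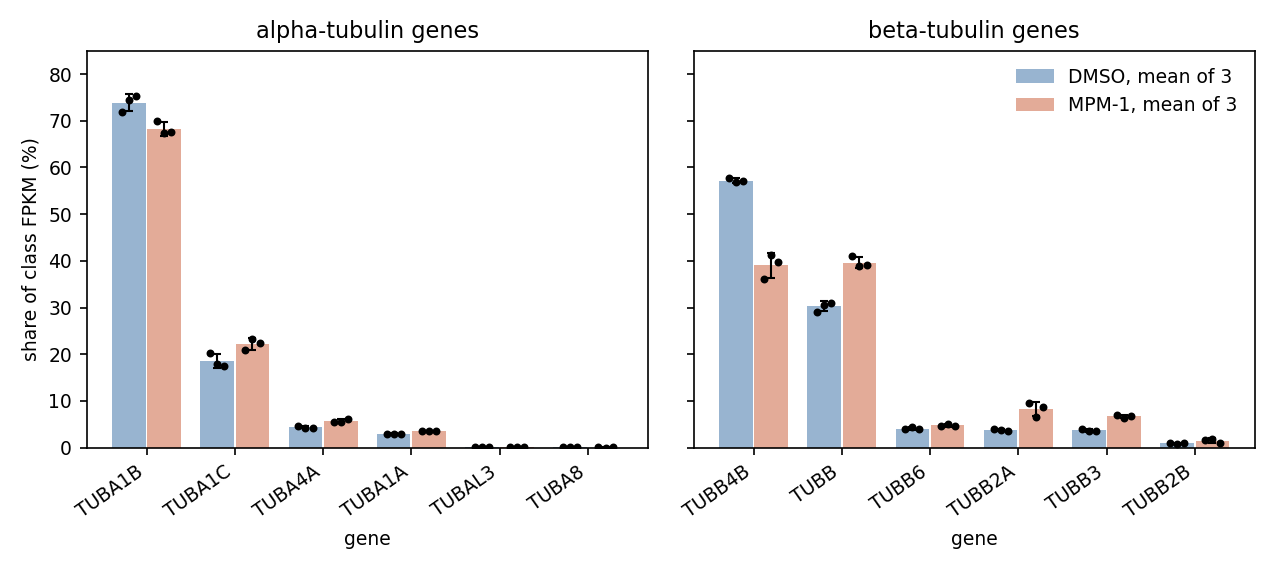
Share of the summed FPKM of its class taken by each alpha-tubulin gene (left) and beta-tubulin gene (right), in percent, with bars at the mean of 3 libraries, error bars of 1 SD and 1 black point per library. TUBB4B falls from 57.2% to 39.1% of the beta class and TUBB moves from 30.3% to 39.7%. TUBA1B goes from 73.9% to 68.3% of the alpha class.

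Reads of near-identical genes may have been split between them by the counting, and the counting method and its use of strand are not given in the sources used here. Of the 100-base windows of each member's transcript, the share also found, letter for letter, in another gene's transcript was 89% for TUBB3, 56.4% for TUBB2A, 37.2% for TUBA1B, 18.3% for TUBA1A and 14.9% for TUBG1. It was 11.5% for TUBA1C, 5.1% for TUBB, 2.86% for TUBB4B, 1.84% for TUBA4A and 0% for TUBB6. The windows of TUBB3 were shared with AC092143.1, a read-through gene on the same strand that was not analysed here, and those of TUBB2A mostly with TUBB2B (54.4%). By this measure the transcript of TUBB4B is almost wholly sequence of its own, and the values of TUBB3 and TUBB2A are less certain. Only exact matches were counted, so these shares do not settle to which gene reads were assigned.

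The sums of TUBB2A and of TUBA1B with such relatives passed in the same direction as each gene alone. Each named gene was the largest part of its sum, so the sums cannot show how reads were split. TUBB2A and TUBB2B together had a log2 fold change of 0.69 (edgeR adjusted p = 0.00067). TUBA1A, TUBA1B and TUBA1C together had −0.49 (edgeR adjusted p = 0.00015). TUBG1 and TUBG2 together had −0.039 (edgeR adjusted p = 0.67) and did not pass, the paralogs lying on opposite sides of 0. Without strand, reads from overlapping genes on opposite strands cannot be told apart either, which among genes in the table touches TUBA1A with TUBA1C over 589 bases, TUBA4A with STK16 over 627 bases, TUBG1 with RETREG3 over 948 bases and TUBB6 with AFG3L2, whose locus overlaps over 15377 bases. Of the called members, TUBA1B lies within an antisense gene, AC011603.2, along its whole 3616 bases, TUBB3 overlaps the antisense gene AC092143.2 over 1271 bases and TUBB4B overlaps FAM166A over 124 bases, genes that were not analysed here.

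Of the 22 tubulin genes listed for the whole family, 16 were in the table, and 3 of these fell, 4 rose and 9 did not pass. These counts are near those that the shares over all genes would give, 20.7% fallen, 20.4% risen and 58.9% not passed, and the counts of each list that follows are to be read against the same shares. Delta- and epsilon-tubulin, which act in the triplet microtubules of centrioles, moved in opposite directions. TUBD1 (delta) stood at 10.2, 11.4 and 8.86 CPM in DMSO and at 3.77, 4.00 and 3.45 CPM in MPM-1, a log2 fold change of −1.44 (−1.83 to −1.04; edgeR adjusted p = 0.00013). TUBE1 (epsilon) stood at 17.3, 18.1 and 17.6 CPM in DMSO and at 43.0, 38.6 and 37.9 CPM in MPM-1, a log2 fold change of 1.17 (0.96 to 1.38; edgeR adjusted p = 8.9e-06). Both were DEGs, as were 8.75% of all genes in the lower and 5.58% in the higher direction.

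TUBG2, the second gamma-tubulin gene, rose from 30.8, 29.6 and 30.5 CPM to 43.4, 43.8 and 39.2 CPM (log2 fold change 0.48; edgeR adjusted p = 0.0010). The FPKM ratio of TUBG1 to TUBG2 was 3.13 ± 0.194 in DMSO and 1.87 ± 0.118 in MPM-1 (SD, n = 3; exact permutation p = 0.1, the smallest possible). TUBB2B (log2 fold change 0.40, adjusted p = 0.18), TUBAL3 (−0.69, adjusted p = 0.16) and TUBA8 (−1.82, adjusted p = 0.026) did not pass in edgeR. TUBA8 had between 2 and 95 counts per library.

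The genes for proteins that fold tubulin showed mRNA changes in both directions. Of 16 chaperonin and prefoldin genes, which fold nascent tubulin, 2 fell, 6 rose and 8 did not pass, with a median log2 fold change of 0.034, where 20.7% of all genes fell and 20.4% rose with a median of −0.026. The prefoldin subunit genes PFDN2 (105 ± 11.8 to 325 ± 32.3 CPM, log2 fold change 1.63) and PFDN1 (0.71) and the chaperonin regulator TXNDC9 (0.41) had the largest rises, and the chaperonin subunit genes CCT7 (−0.46) and CCT8 (−0.37) fell. Tubulin cofactors join alpha- and beta-tubulin into the dimer. Of 9 genes for cofactors and related proteins, TBCC (−1.16) and TBCD (−1.09) fell, TBCE (0.47) rose and 6 did not pass, with a median of −0.033, against the same shares.

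Of 4 genes for the decay of tubulin mRNA, 2 fell, where 20.7% of all genes did, and 0 rose in edgeR (also 0 at an unadjusted p under 0.05 and 0 in DESeq2), with a median of −0.15. TTC5, which recognizes nascent tubulin, went from 14.2 ± 1.52 to 7.90 ± 1.27 CPM (SD, n = 3), a log2 fold change of −0.84 (−1.22 to −0.46; edgeR adjusted p = 0.0022). CNOT1, the scaffold of the CCR4-NOT deadenylase, fell by 0.35 on the log2 scale.

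Of 22 genes of the gamma-tubulin ring complex and its recruitment, the partners of TUBG1, 8 fell, 2 rose and 12 did not pass, with a median of −0.32, against 20.7% and 20.4% of all genes. The augmin subunit gene HAUS8 (−1.05), the centrosome protein gene CEP192 (−0.997) and MZT1 (−0.94), a small subunit of the ring complex, had the largest falls. HAUS2, another augmin subunit gene (0.82), and AKAP9, which encodes a Golgi and centrosome scaffold (0.40), rose. The 24 listed tubulin-modifying enzymes, which add groups to tubulin or remove them, had 18 genes in the table, of which 2 fell, 4 rose and 12 did not pass (median 0.045), against the same shares.

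VASH2, a tubulin carboxypeptidase gene that removes the tyrosine end of alpha-tubulin, fell from a low level (2.51 ± 0.987 to 0.499 ± 0.210 CPM, log2 fold change −2.32), and so did the deglutamylase gene AGBL5 (−0.51). The deglutamylase gene AGTPBP1 (0.74), TPGS1, a subunit gene of the polyglutamylase complex (0.51), and the glycylase gene TTLL3 (0.43) had the largest rises.

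Of 12 genes for depolymerizing and severing proteins in the table, 7 fell, 1 rose and 4 did not pass, with a median of −0.69, against 20.7% of all genes fallen and 20.4% risen. KIF24 (−2.10), STMN3 (−1.37) and KIF2C (76.9 ± 6.72 to 30.2 ± 2.30 CPM, −1.35) had the largest falls, and KIF2A (0.59) rose; KIF24, KIF2C and KIF2A encode kinesins that take microtubule ends apart, and STMN3 encodes a stathmin, which binds tubulin dimers. Of 15 genes for proteins that bind along the microtubule, 5 fell, 5 rose and 5 did not pass (median 0.094), against the same shares. MAP2, a neuronal microtubule protein gene, was among those that rose, from counts of 3, 10 and 3 in DMSO to 132, 165 and 154 in MPM-1 (log2 fold change 5.09), followed by CAMSAP1 (1.11), which binds minus ends, and MAP7 (0.57), which recruits kinesin. MTUS2 (−2.64), EML1 (−1.80) and MAPT, the gene for tau (−0.77), had the largest falls.

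Of 14 plus-end protein genes in the table, 2 fell, 5 rose and 7 did not pass (median 0.15), against 20.7% and 20.4% of all genes. CLIP4 (2.44), CLIP1 (0.78) and MACF1, which links actin and microtubules (0.61), had the largest rises, and APC (−1.28) and CKAP5, the gene of a microtubule polymerase (−0.39), fell. Of 12 spindle protein genes, 9 fell, 0 rose and 3 did not pass, with a median of −1.10, against the same shares (1 rose at an unadjusted p under 0.05 and 1 in DESeq2). GTSE1 (−2.07), DLGAP5 (−1.99) and TACC3 (−1.88) had the largest falls. Across the 9 lists together, without the tubulins, 39 of 122 genes fell (32%) and 24 rose (19.7%), with a median of −0.079. Of all genes, 20.7% fell and 20.4% rose in the same fit. With scaling by library size alone 44 of the 122 fell and 13 rose. That scaling moved the median of all genes to −0.18, and its shares of all genes are not given here.

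**Figure D4:**
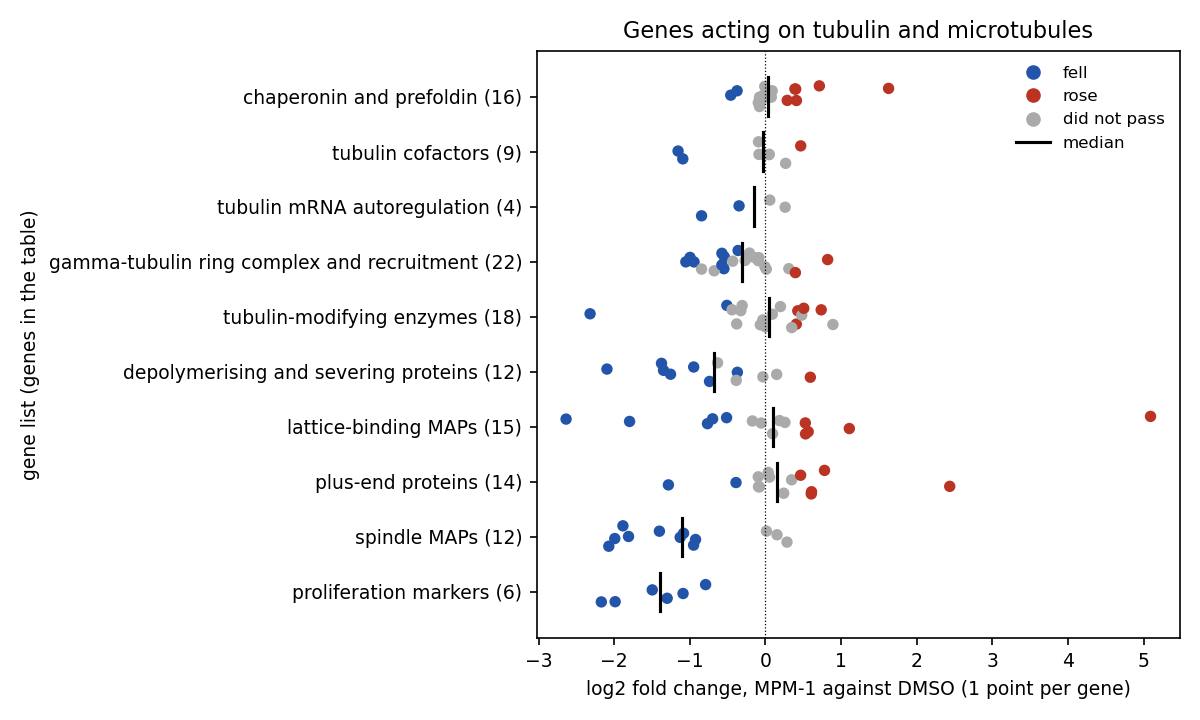
Log2 fold change of MPM-1 against DMSO for each gene of 9 lists of genes acting on tubulin and microtubules and of the proliferation markers, 1 point per gene, blue where it fell, red where it rose and grey where it did not pass an adjusted p of 0.01, with a black bar at the median. The spindle protein genes (median −1.10) and proliferation markers (median −1.40) lie furthest left.

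Proliferation markers were lower with MPM-1, as were TUBB4B and TUBA1B but not TUBB2A and TUBB3. All 6 listed fell in edgeR, 0 rose, also at an unadjusted p under 0.05 and in DESeq2, and their median log2 fold change was −1.40, with MKI67 at −2.17, CCNB1 at −1.99, MCM2 at −1.50, TOP2A at −1.30, CDK1 at −1.09 and PCNA at −0.79. Their summed level was 1112 to 1120 CPM in the DMSO libraries and 398 to 435 CPM in the MPM-1 libraries. TUBB4B, which is itself often used among the genes that mark the G2/M phases, had a log2 fold change of −0.88, and the other abundant beta gene, TUBB, had 0.05. The part of the proliferation markers in the tubulin results was not tested.

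Genes whose level across the 6 libraries was most like that of a member were found by Pearson's r of log2 CPM, as a description over libraries that share the same treatment groups. For TUBA1B these were CAD, APEH and PSME1 (r = 0.9999, 0.999 and 0.999), and 1414 genes had an r over 0.95. For TUBB4B they were ABHD6, SPR and BID (r = 0.999, 0.999 and 0.998), with 1075 genes over 0.95. For TUBG1 they were PLEKHG6, KYAT1 and ITGA5 (r = 0.997, 0.995 and 0.994), with 296 genes over 0.95.

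The promoters of the 4 members that passed the test are printed below, since they moved in opposite directions. Each line is the 250 bases before a RefSeq start (GRCh38.p14), 5′ to 3′ along the gene, taken from the window nearest to the start of the transcript used here, with CCAAT and its reverse complement ATTGG in capitals. The windows searched ran from 250 bases before to 50 bases after the start. The positions are chr9:137241037-137241286 (plus) for TUBB4B, chr12:49131396-49131645 (minus) for TUBA1B, chr6:3157545-3157794 (minus) for TUBB2A and chr16:89923092-89923341 (plus) for TUBB3.
TUBB4B: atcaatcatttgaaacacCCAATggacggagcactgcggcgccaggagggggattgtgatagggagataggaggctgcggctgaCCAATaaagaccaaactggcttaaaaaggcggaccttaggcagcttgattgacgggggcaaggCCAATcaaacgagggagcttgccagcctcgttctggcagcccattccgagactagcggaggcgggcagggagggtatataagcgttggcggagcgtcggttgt
TUBA1B: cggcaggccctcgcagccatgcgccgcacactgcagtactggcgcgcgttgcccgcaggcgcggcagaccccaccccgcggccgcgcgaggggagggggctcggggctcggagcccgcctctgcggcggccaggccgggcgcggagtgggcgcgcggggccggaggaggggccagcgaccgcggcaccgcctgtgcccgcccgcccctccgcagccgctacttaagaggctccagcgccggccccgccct
TUBB2A: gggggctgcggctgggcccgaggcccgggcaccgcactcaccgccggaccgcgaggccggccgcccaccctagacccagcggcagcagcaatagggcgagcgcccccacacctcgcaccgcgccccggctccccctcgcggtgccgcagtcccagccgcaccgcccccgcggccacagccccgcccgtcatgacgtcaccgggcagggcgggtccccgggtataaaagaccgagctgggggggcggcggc
TUBB3: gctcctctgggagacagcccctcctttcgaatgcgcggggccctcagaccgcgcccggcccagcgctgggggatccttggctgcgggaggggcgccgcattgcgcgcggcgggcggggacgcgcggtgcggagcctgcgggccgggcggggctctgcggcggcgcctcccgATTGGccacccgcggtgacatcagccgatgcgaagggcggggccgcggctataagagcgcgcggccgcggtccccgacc

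Searched on both strands, CCAAT occurred 3 times in the window of TUBB4B, 1 time in that of TUBB3 and 0 times in those of TUBA1B and TUBB2A. At least 1 occurrence was found in 34.6% of all 35116 RefSeq windows and at least 3 in 3.26%. It was present in 7 of the 10 members, which were TUBA1A, TUBA1C, TUBB, TUBB3, TUBB4B, TUBB6 and TUBG1, so members that fell, rose and did not pass all had it.

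The GC-box letters GGGCGG (reverse CCGCCC) occurred 5 times in TUBB2A, 5 times in TUBB3, 3 times in TUBA1B and 0 times in TUBB4B. They were present in 8 of 10 members and 45% of all windows, and at least 3 times in 14.9% of all windows. TTTGAA (reverse TTCAAA) was present in TUBB4B and TUBA1C and in 15.2% of all windows. TATAAA (reverse TTTATA) was present in TUBB2A and in 11.5% of windows, and CACGTG, its own reverse complement, in TUBA1C and in 7.26% of windows. The window of TUBB4B had a GC content of 57.3%, and those of TUBA1B, TUBB2A and TUBB3 had 77% to 79%. These matches describe the letters in the windows.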

How the data were processed

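Expression was measured by RNA sequencing of mRNA libraries from SW480 cells, 3 per treatment, grouped by the sample labels. The authors deposited 1 table of 12982 genes with whole-number counts per gene and library, not normalized, and FPKM values, which the authors scaled for transcript length and library size. It also holds the authors' log2 fold changes and FDR (adjusted p-values), which were not used. HISAT2, DESeq2 and the build mm10 are named in the submitters' processing notes, without roles, whereas the table's identifiers are human Ensembl identifiers plus 855 NewGene rows without a position. The counting is not given in the sources used here. The lowest total over the 6 libraries was 115 counts, and genes below that were not analysed here.

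The members and gene lists were chosen with earlier results of these data known. Counts were fitted with edgeR 4.0.16 (R 4.3.3) by the quasi-likelihood test with TMM scaling, and p-values were adjusted over all genes (Benjamini-Hochberg). A gene fell or rose at an adjusted p under 0.01 and was a DEG where the log2 fold change was also at least 1 in size. In a class sum, the rows of all alpha- or beta-tubulin genes were replaced by their sum. All members, other tubulins and proliferation markers were named, and in each list the 3 largest rises and falls among genes that passed. A prior count of 2 was used for log2 CPM. The test was tried on simulated data. Alternatives used DESeq2 1.42.0, limma 3.58.1 on log2(FPKM + 0.1 or 1) with a mean FPKM of at least 1 or no filter, other scalings, a mean count of at least 50, a replicate block and each library left out. A fold change on the log2(FPKM + pseudocount) scale understates the change of low genes. Coding sequences and windows came from GENCODE release 29 and promoters from RefSeq, both read with Python 3.11.15 and aligned with Biopython 1.88. All 10 members were found in both, by Ensembl identifier in GENCODE and by symbol in RefSeq. The coding ends of the alpha members are not reported here.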

Additional observations from a re-analysis of the deposited data

How the results depend on the processing

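The log2 fold changes of TUBB4B (−1.04 to −0.77), TUBA1B (−0.79 to −0.60), TUBB2A (0.60 to 0.93) and TUBB3 (0.36 to 0.62) kept their direction and call under 15 alternatives, paralog sums aside. Scaling by library size alone gave 4 members that fell, 1 DEG and 13 microtubule genes that rose. The 3 limma fits on FPKM gave 5 members that fell and 1 DEG each, with 9, 9 and 10 microtubule genes that rose. The shares of all genes called in these 4 fits are not given here, so their counts cannot be set against a background. TUBB changed sign in these 4 fits, to −0.095 with library size alone and to −0.099 in limma, without passing. At an adjusted p under 0.05, 4 members fell, where 28.8% of all genes did. With paralogs summed to 2 features (TUBA1A, TUBA1B and TUBA1C, and all beta-tubulin genes), counted beside TUBA4A and TUBG1, 2 fell and 0 rose. TUBB2A and TUBB3 are part of the beta sum there, so that count cannot show their rise. The cause of the changes under library size alone and in limma was not tested, beyond the shift of the median over all genes. That median went from −0.026 on the log2 scale to −0.18 with library size alone and to between −0.17 and −0.13 in limma. The beta sum lost its call with DESeq2 size factors (−0.24) and with the replicate block (−0.26). Leaving out each library in turn gave −0.29 to −0.20 for the beta sum, −0.49 to −0.43 for the alpha sum and 15 to 20 microtubule genes that rose, the lowest without DMSO replicate 2. In the same fits 2 members fell and 2 rose each time. Deviations from the group mean had correlations of 0.021, 0.11 and −0.074 between libraries with the same number, and −0.13 to 0.11 between those with different numbers. With 3 libraries per group these values cannot decide whether the number marks a pairing, and the main fit used none. The paralog sums of single genes, the lists under each alternative and the alternatives for the shares were chosen after seeing the data. No member was near its depth limit, but 2 to 95 counts limit what can be said of TUBA8, and groups of 3 libraries keep any exact permutation test at 0.1 or above.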
